A study of Mus musculus with 12 samples.

Results

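Immunity-related GTPases are interferon-inducible large GTPases that mouse cells use against intracellular pathogens. The 6 genes described here are Irgm1, Irgm2, Igtp, Iigp1, Tgtp1 and Tgtp2. They were taken by symbol from a table of 42687 gene rows. All 6 had counts in at least 1 library. The filter on low counts kept 13261 genes, among them 5 of the 6; Tgtp1 was left out by it. Iigp1 and Tgtp2 passed the filter through 1 group alone, so a count over the tested members is a description of where they were detected.

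Messenger RNA was sequenced from DC2.4 cells, an immortalised wild-type mouse dendritic cell line, in 12 libraries of 4 groups with 3 libraries each. Extracellular vesicles of activated T cells (ATEV) were given at 15 µg/mL in a pair of groups. In the first of these, called DNase-treated ATEV below, Baseline-ZERO DNase had acted on the vesicles beforehand. Another group was given NTEV, the vesicles that non-activated T cells release, at 30 µg/mL, and the last was given PBS. The ATEV and NTEV groups therefore differ in vesicle dose as well as in vesicle source; the labels give 5 µg/mL of vesicle DNA beside the NTEV dose. All groups are 1 cell line in the same serum-containing medium, harvested and replated a day after treatment, a procedure performed 3 times. Whether the 3 libraries within each group stem from separate cultures is not in the labels, so p-values measure the spread between these libraries, which may be technical. Totals per library lay between 19.4 and 30.4 M counts.

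The family has a regulatory branch and an effector branch. Irgm1, Irgm2 and Igtp (also called Irgm3) carry an altered GTP-binding motif, sit on the cell's own endomembranes and hold the effectors in an inactive state there. Iigp1 (Irga6) and the Tgtp proteins (Irgb6) are effectors that load onto the membrane of the vacuole around a pathogen such as Toxoplasma gondii and help to disrupt it. Interferon-gamma is the textbook inducer of both branches, and type I interferons induce them as well.

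In GENCODE M21, on build GRCm38, Irgm1 (ENSMUSG00000046879) lies at chr11:48861968-48871683 on the minus strand. Tgtp1 (ENSMUSG00000078922) lies at chr11:48985327-48994172 and Tgtp2 (ENSMUSG00000078921) at chr11:49057194-49064206, both on the minus strand. Igtp (ENSMUSG00000078853) at chr11:58199556-58207591 and Irgm2 (ENSMUSG00000069874) at chr11:58199618-58222782 overlap on the plus strand, sharing 162 exon bases. The submitters named another build, mm9, so these positions serve to place the genes and were not used in counting.

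Promoter sequences from RefSeq (GRCm38.p6) were matched by symbol to 5 of the 6 members; a RefSeq start can lie inside the longer GENCODE span of a gene, as it does for Irgm2. They are shown because the members moved together and because their known inducers act through a pair of short motifs. These are the core of the interferon-stimulated response element (ISRE, searched as GAAA, any 2 bases and GAAA again), bound by IRF factors, and the gamma-activated sequence (GAS, searched as TTCNNNGAA), through which interferon-gamma acts. Both strands of the 250 bases before each gene start were searched. Each line below gives 60 bases, 5′ to 3′ on the gene's strand, with motif matches in capitals; in Irgm1 the capitals are 2 overlapping ISRE matches, and in the other 4 a GAS match followed by an ISRE match.
Irgm1, chr11:48871427-48871486: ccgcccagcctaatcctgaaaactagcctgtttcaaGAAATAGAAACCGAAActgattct
Irgm2, chr11:58214871-58214930: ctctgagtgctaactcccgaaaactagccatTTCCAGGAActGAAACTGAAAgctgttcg
Igtp, chr11:58199480-58199539: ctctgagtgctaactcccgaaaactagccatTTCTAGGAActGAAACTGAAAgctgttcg
Tgtp1, chr11:48992306-48992365: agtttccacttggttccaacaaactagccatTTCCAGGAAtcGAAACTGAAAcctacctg
Tgtp2, chr11:49064265-49064324: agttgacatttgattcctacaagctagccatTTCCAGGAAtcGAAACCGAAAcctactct

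All 5 promoters held an ISRE core, against 978 of 32851 RefSeq promoters of the same length (2.98%). A GAS match was present in 4 of the 5, against 7.02% of all promoters. In Irgm2, Igtp, Tgtp1 and Tgtp2 the GAS match ended 2 bases before the ISRE core. A GAS match within 10 bases of an ISRE core, a distance chosen after these sequences were seen, occurred in 14 promoters of all 32851 (0.0426%). The ISRE core was not particular to the members. Among the guanylate-binding proteins described below, 5 of 6 promoters held it, 2 held a GAS match and 0 held them within 10 bases. Of 8 promoters of other family genes, 3 held an ISRE core, 2 a GAS match and 2 the pair within 10 bases. The Irgm2 and Igtp stretches were identical at 59 of 60 bases and the Tgtp1 and Tgtp2 stretches at 50 of 60. Irgm1 matched the others at 29 to 32 of 60 positions and had no GAS match in its 250 bases. A motif match is a description of the sequence; no binding was measured in these libraries.

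**Figure D1:**
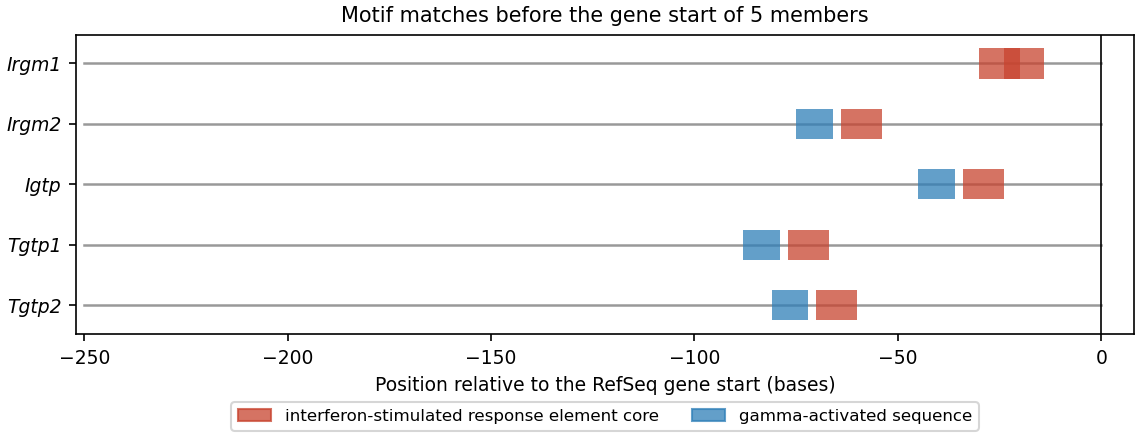
Positions of motif matches in the 250 bases before the RefSeq gene start of 5 members, with distance from the start in bases on the x axis. The ISRE core begins 30 and 24 bases before the start in Irgm1, 64 in Irgm2, 34 in Igtp, 77 in Tgtp1 and 70 in Tgtp2, and in the last 4 genes a GAS match lies next to it on the side away from the start.

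The regulatory genes were expressed in all 12 libraries and stood apart in cells given ATEV. Levels are given as CPM, a gene's count as a rate over its library's TMM-scaled total. Irgm1, which is also needed for mouse resistance to mycobacteria, had 17.96, 17.7 and 15.3 CPM in the DNase-treated ATEV libraries, 58.7, 54.7 and 51.7 CPM with ATEV, 14.9, 17.6 and 15.9 CPM with NTEV, and 12.1, 16.3 and 15.3 CPM with PBS. The 3 ATEV libraries lay above the other 9, and the ranges of the remaining groups overlapped each other. In such whole-culture RNA, fewer cells expressing a gene and less RNA per cell cannot be told apart.

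Irgm2 had 4.62, 5.97 and 4.72 CPM with DNase-treated ATEV, 35.2, 25.5 and 29.8 CPM with ATEV, 3.42, 3.92 and 3.63 CPM with NTEV, and 3.00, 2.63 and 4.27 CPM with PBS. ATEV again stood apart from the other 9 libraries. The DNase-treated ATEV libraries also lay above all 6 NTEV and PBS libraries, by a far smaller margin. Igtp had 4.09, 3.65 and 4.76 CPM with DNase-treated ATEV, 18.7, 15.8 and 16.5 CPM with ATEV, 3.90, 2.84 and 3.53 CPM with NTEV, and 3.99, 4.18 and 3.58 CPM with PBS. For Igtp the 3 groups other than ATEV overlapped.

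The effector genes were close to absent outside the ATEV group. Iigp1 (ENSMUSG00000054072), the 1 member outside chromosome 11, had 0, 2 and 2 counts in the DNase-treated ATEV libraries, 255, 259 and 313 counts in the ATEV libraries, and 0 in every NTEV and PBS library. Its ATEV level was 10.98, 12.4 and 16.6 CPM. Tgtp2 had 2, 0 and 2 counts with DNase-treated ATEV, 302, 279 and 416 counts with ATEV (16.1 ± 5.13 CPM, SD, n = 3), and 0 with NTEV and with PBS. In cells given ATEV both effectors were thus measured in every library, while in cells given NTEV or PBS neither was detectable at this depth.

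For Iigp1 and for Tgtp2 alike, the 4 counts over the DNase-treated ATEV group correspond to 0.0607 CPM, with an exact Poisson 95% interval of 0.0165 to 0.156 CPM that covers counting error only. That interval includes the level of 3 counts, the floor used here for a count of 0, which was 0.0405 CPM over the NTEV group and 0.0431 CPM over the PBS group. Tgtp1 had 0 counts with DNase-treated ATEV, 6, 8 and 16 counts with ATEV, and 0 with NTEV and PBS.

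The division of reads between Tgtp1 and Tgtp2 is uncertain, because the genes are near-identical. Of the distinct 50-base windows of the Tgtp1 transcripts, 79.4% also occur in Tgtp2, and of those of Tgtp2, 89.8% occur in Tgtp1. Igtp shared 11.8% of its windows with Irgm2. Iigp1 and Irgm1 were nearly unique, with 3.2% and 0.782% of windows shared with any other gene. The counting rule for shared reads is not given in the sources used here.

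**Figure D2:**
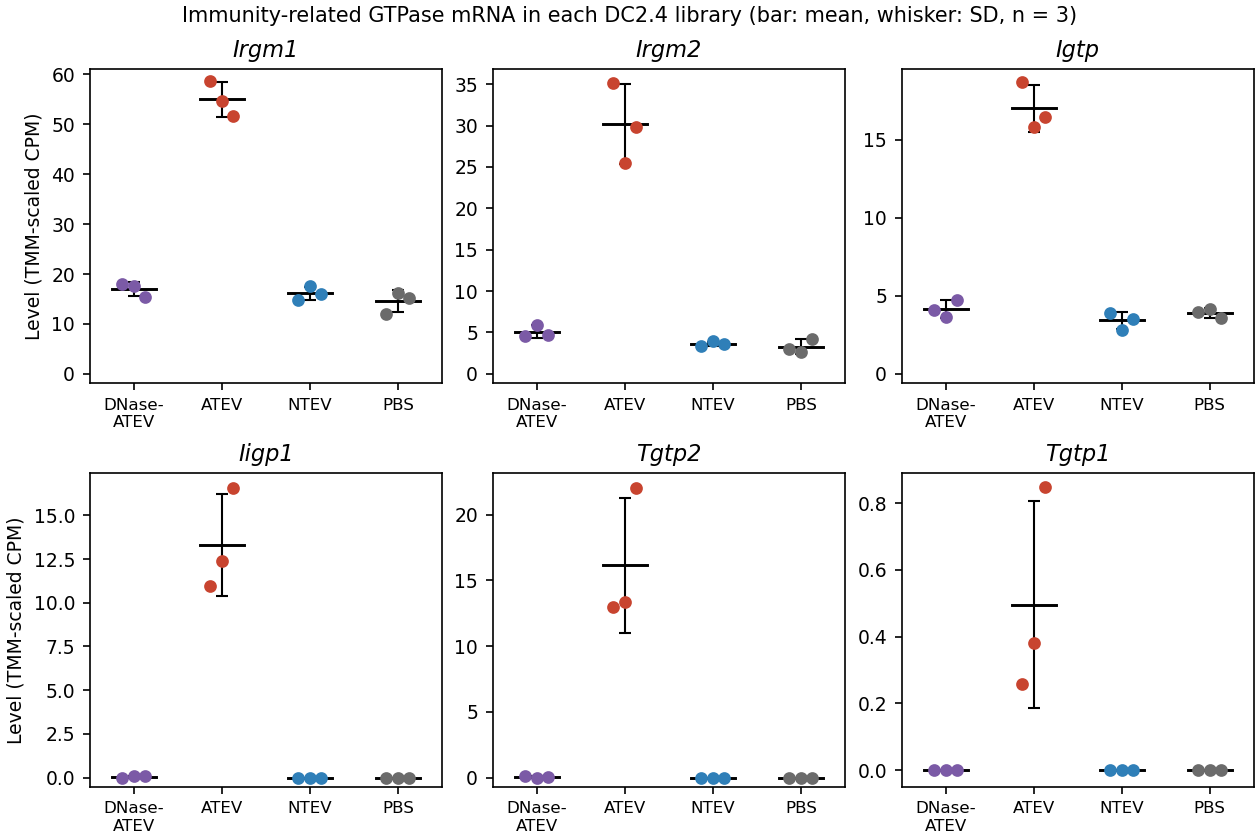
TMM-scaled CPM of the 6 members in each library by group, on linear axes of their own; points are libraries, the horizontal bar is the mean and the whisker the SD over 3 libraries. In each panel the 3 ATEV libraries lie above the other 9, and Iigp1, Tgtp1 and Tgtp2 are at or near 0 in the remaining groups.

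Summed over the 6 members, the level was 24.96 to 27.4 CPM with DNase-treated ATEV, 122.1 to 137.5 CPM with ATEV, 22.2 to 24.3 CPM with NTEV and 19.1 to 23.1 CPM with PBS. The ATEV libraries did not share 1 ranking across the members. Irgm1, Irgm2 and Igtp were highest in ATEV replicate 1, whereas Iigp1, Tgtp1 and Tgtp2 were highest in ATEV replicate 3. In that library Ifi47, an effector of the family outside the 6 members, was also highest.

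Levels were also set on a scale per kilobase of merged exon, a rough means of comparing different genes. On it the ATEV level was 9.48 ± 0.603 CPM per kb for Irgm1, 8.41 ± 0.754 for Igtp, 8.17 ± 1.31 for Irgm2, 5.49 ± 1.75 for Tgtp2, 2.29 ± 0.502 for Iigp1 and 0.155 ± 0.097 for Tgtp1 (mean ± SD, n = 3). With this length, Irgm1, Igtp and Irgm2 did not differ beyond their spread in that order. With PBS the order was Irgm1 at 2.5 ± 0.379, Igtp at 1.94 ± 0.152 and Irgm2 at 0.893 ± 0.233 CPM per kb. Irgm2 was the lowest of the 3 regulators with PBS, whereas with ATEV it and Igtp lay within each other's spread. Merged exons take in all annotated transcripts of a gene, which lowers the value of a gene with long alternative exons. Irgm1 and Iigp1 had 5.81 and 5.82 kb of merged exon, but 2302 and 3122 distinct 50-base windows in their protein-coding transcripts. Igtp had 2.02 kb and 2064 windows. The places of Irgm1 and Iigp1 in these orders therefore depend on the length used.

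Setting ATEV against PBS asks what vesicles of activated T cells do to these cells. All 5 tested members were higher with ATEV, against 3.32% of the 13261 genes called higher in that comparison, 1.42% called lower and 4.74% in either direction. These shares depend on single libraries: in either direction 1.27% were called without PBS replicate 2 and 6.51% without ATEV replicate 1. A call is an adjusted p under 0.05 in edgeR's quasi-likelihood test. Iigp1 and Tgtp2 passed the filter through ATEV alone, so their direction was largely set by it. The count of called members thus rests on Irgm1, Irgm2 and Igtp. Irgm1 averaged 55.1 ± 3.502 CPM with ATEV and 14.5 ± 2.20 CPM with PBS (SD, n = 3 each), a log2 fold change of 1.92 ± 0.14 (SE, edgeR adjusted p = 6.65e-06). Irgm2 averaged 30.2 ± 4.84 CPM with ATEV and 3.30 ± 0.859 CPM with PBS, a log2 fold change of 3.19 ± 0.21 (edgeR adjusted p = 3.04e-06). Igtp averaged 17.0 ± 1.53 CPM with ATEV and 3.92 ± 0.308 CPM with PBS, with a log2 fold change of 2.12 ± 0.18 (edgeR adjusted p = 3.25e-05).

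In log2 terms the median over all genes tested was 0.03. With the PBS group set at a floor of 3 counts, Iigp1 was at least 304-fold higher with ATEV (edgeR adjusted p = 3.25e-05) and Tgtp2 at least 367-fold higher (edgeR adjusted p = 4.25e-05). Since both passed the filter through ATEV alone, these p-values describe where the genes were detected. Tgtp1 was at least 11-fold higher on the same floor, with no test in the filtered table.

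NTEV against PBS asks the same of vesicles of non-activated T cells. No member passed the edgeR test, while 2.31% of all genes did, 1.7% higher and 0.611% lower. Without PBS replicate 3 that share was 0.234%, and without NTEV replicate 1 it was 12.7%, with no member called in either fit. Irgm1 averaged 16.1 ± 1.36 CPM with NTEV and 14.5 ± 2.20 CPM with PBS, a log2 fold change of 0.15 ± 0.14 (edgeR adjusted p = 0.583). The corresponding values were 0.15 ± 0.21 for Irgm2 (edgeR adjusted p = 0.73) and -0.19 ± 0.19 for Igtp (edgeR adjusted p = 0.598). Approximate 95% intervals ran from -0.12 to 0.42 for Irgm1, -0.27 to 0.56 for Irgm2 and -0.56 to 0.17 for Igtp. Irgm1, Irgm2 and Igtp alone carry this result, because Iigp1 and Tgtp2 had 0 counts in both groups. No member had an unadjusted p under 0.05, against 2534 of the 13261 genes. DESeq2 and limma-voom called 0 members as well.

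ATEV against NTEV, at 15 against 30 µg/mL of vesicles, gave 5 of 5 tested members higher with ATEV, against 0.875% of all genes called higher, 0.0603% lower and 0.935% in either direction (0.528% without NTEV replicate 3, 2.16% without ATEV replicate 1). The log2 fold change was 1.77 ± 0.14 for Irgm1 (edgeR adjusted p = 1.65e-05), 3.04 ± 0.21 for Irgm2 (edgeR adjusted p = 4.82e-06) and 2.31 ± 0.19 for Igtp (edgeR adjusted p = 1.65e-05). Iigp1 was at least 324-fold and Tgtp2 at least 391-fold higher with ATEV, and Tgtp1 at least 11.8-fold. The direction of Iigp1 and Tgtp2 was largely set by the filter, which they passed through ATEV alone. The group with the smaller vesicle dose had the higher levels.

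DNase-treated ATEV against ATEV compares these vesicles with and without the enzyme treatment, at a matched dose of 15 µg/mL. The groups include none with mock-treated vesicles and none given PBS with the enzyme. The part of DNA, as against that of handling or of enzyme carried over, was therefore not tested. All 5 tested members were lower with DNase-treated ATEV, against 1.32% of all genes called lower, 0.143% higher and 1.46% in either direction (0.573% without DNase-treated ATEV replicate 2, 3.93% without ATEV replicate 1). Irgm1 averaged 17.0 ± 1.45 CPM with DNase-treated ATEV and 55.1 ± 3.502 CPM with ATEV, a log2 fold change of -1.70 ± 0.14 (edgeR adjusted p = 4.14e-05). Irgm2 averaged 5.10 ± 0.750 CPM with DNase-treated ATEV and 30.2 ± 4.84 CPM with ATEV, a log2 fold change of -2.56 ± 0.21 (edgeR adjusted p = 4.14e-05). For Igtp the means were 4.17 ± 0.559 and 17.0 ± 1.53 CPM with DNase-treated ATEV and with ATEV, a log2 fold change of -2.03 ± 0.18 (edgeR adjusted p = 6.54e-05).

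The effectors were almost lost with DNase-treated ATEV. For Iigp1 the 4 counts with DNase-treated ATEV against 827 with ATEV gave a ratio of 0.00463 (95% counting interval 0.00126 to 0.0119; edgeR adjusted p = 6.54e-05). For Tgtp2 the 4 counts with DNase-treated ATEV against 997 with ATEV gave a ratio of 0.00384 (95% counting interval 0.00104 to 0.00986; edgeR adjusted p = 8.09e-05). Tgtp1 was at least 10.4-fold lower. Here too the filter, which Iigp1 and Tgtp2 passed through ATEV alone, largely set their direction.

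DNase-treated ATEV against PBS left no member past the threshold. In this comparison 0% of the 13261 genes were called by edgeR, although 791 had an unadjusted p under 0.05; DESeq2 called 21 higher and 14 lower, limma-voom 0, and edgeR 7 without DNase-treated ATEV replicate 1. The log2 fold change was 0.22 ± 0.14 for Irgm1 (edgeR adjusted p = 0.826), 0.63 ± 0.21 for Irgm2 (edgeR adjusted p = 0.708) and 0.09 ± 0.19 for Igtp (edgeR adjusted p = 0.918). The approximate 95% interval for Irgm2, 0.22 to 1.04, lay above 0 without adjustment, and those of Irgm1 (-0.05 to 0.50) and Igtp (-0.27 to 0.45) included it. Irgm2, Iigp1 and Tgtp2 had unadjusted p-values under 0.05, Iigp1 and Tgtp2 on 4 counts each against 0; DESeq2 and limma-voom called 0 members. All 3 regulators' intervals exclude the size of the change that ATEV gave against PBS.

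Against NTEV, DNase-treated ATEV moved none of the 5 tested members past the edgeR threshold, against 0.679% of all genes, 0.211% higher and 0.468% lower (0.0302% in all without DNase-treated ATEV replicate 2, 2.41% without NTEV replicate 1). The log2 fold changes were 0.07 ± 0.14 for Irgm1 (edgeR adjusted p = 0.9), 0.48 ± 0.21 for Irgm2 (edgeR adjusted p = 0.365) and 0.28 ± 0.19 for Igtp (edgeR adjusted p = 0.598). Irgm2, Iigp1 and Tgtp2 were again the members with an unadjusted p under 0.05, as were 1625 of the 13261 genes. DESeq2 and limma-voom again called 0 members. Comparisons that share a group are not independent of each other.

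**Figure D3:**
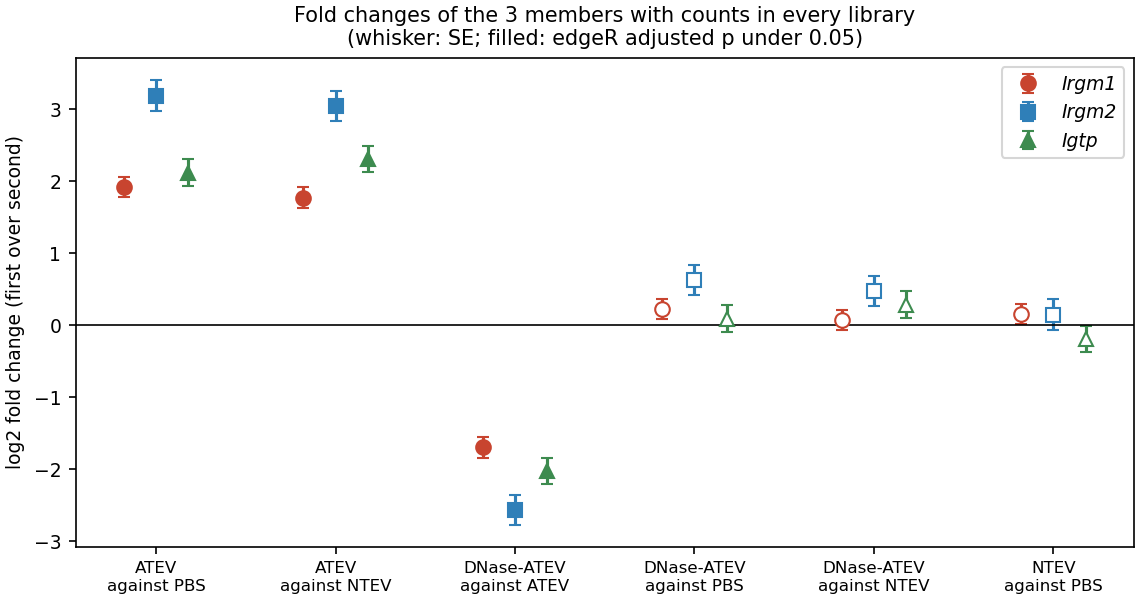
Log2 fold changes of the 3 members with counts in every library, in 6 comparisons, first-named group over second; whiskers are SE and filled symbols have an edgeR adjusted p under 0.05. Values lie between 1.77 and 3.19 where ATEV is the first group, between -2.56 and -1.70 for DNase-treated ATEV against ATEV, and between -0.19 and 0.63 in the other comparisons.

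Irgm2 was also set against Irgm1 within each library. The ratio of Irgm2 to Irgm1 counts within a library was 0.257, 0.338 and 0.308 with DNase-treated ATEV, 0.599, 0.466 and 0.576 with ATEV, 0.23, 0.223 and 0.228 with NTEV, and 0.248, 0.161 and 0.28 with PBS. The ATEV libraries had the highest 3 ratios, and their mean log2 ratio exceeded that of PBS by 1.28. An exact two-sided permutation test gave p = 0.1, the smallest that 3 against 3 libraries allow, and 0.2 after adjustment over the 6 ratio tests made. The ratio of Igtp to Irgm1 differed by 0.187 on the log2 scale between ATEV and PBS (exact permutation p = 0.4, adjusted 0.4). Neither reaches the threshold in this design.

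Other genes of the family were looked at next. There were 12 such genes with counts, of which 9 were tested, and with ATEV against PBS 6 were higher and 0 lower. Over all genes tested 3.32% were called higher and 1.42% lower. The median log2 fold change of the 9 was 2.83, against 0.03 over all genes tested. Gm12250, Gm12185, Gm1966 and Gm4951 had 11 or fewer counts in each group other than ATEV, so they passed the filter through ATEV alone and their direction was largely set by it. The median is the same with Gm4951, which had 62 counts with ATEV and 0 with PBS, set at its lower bound of 22.8-fold. Ifi47 (Irgd), which like Iigp1 has the effector type of GTP-binding motif, averaged 1.62 ± 0.468 CPM with DNase-treated ATEV, 8.61 ± 3.97 CPM with ATEV, 1.46 ± 0.536 CPM with NTEV and 1.37 ± 0.172 CPM with PBS. Its log2 fold change was 2.64 ± 0.37 for ATEV against PBS (edgeR adjusted p = 0.00125) and -2.402 ± 0.37 for DNase-treated ATEV against ATEV (edgeR adjusted p = 0.00422).

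The predicted family genes Gm12250, Gm12185, Gm5431 and Gm1966 were higher with ATEV than with PBS by 4.43, 4.79, 2.83 and 4.28 on the log2 scale. Tgtp1 and Gm12185 share 223 exon bases on 1 strand, so reads there cannot be divided with certainty. Irgq, a divergent member, had a log2 fold change of 0.13 (edgeR adjusted p = 0.735) at 29.0 ± 7.21 CPM with ATEV and 26.6 ± 3.08 CPM with PBS. The remaining genes, 9930111J21Rik1 and 9930111J21Rik2, gave 1.02 and 0.93 without passing the test (edgeR adjusted p = 0.11 and 0.0997). Their unadjusted edgeR p-values were 0.015 and 0.0124, and in both the 3 ATEV libraries lay above the other 9. DESeq2 called 7 of the 9 family genes higher and gave no adjusted p for Gm4951, and limma-voom called 6. Over all 13261 genes these tools called 871 and 372 higher.

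With DNase-treated ATEV against ATEV, the same 6 family genes were lower, against 1.32% of all genes tested. The median was -3.17 over the 9 tested and -0.0037 over all genes. For the 4 that passed the filter through ATEV alone this direction was largely set by the filter. Ifi47 and Gm5431 had counts in all 12 libraries. The call of Gm4951 was lost in 5 of the 6 fits that left out 1 library, with an edgeR adjusted p up to 0.0778. Neither DNase-treated ATEV nor NTEV against PBS called any of the 9 in edgeR, DESeq2 or limma-voom, and 0 had an unadjusted p under 0.05. Over all genes tested, edgeR called 0% and 2.31% in these comparisons.

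Guanylate-binding proteins are interferon-inducible GTPases that act with the immunity-related GTPases on pathogen vacuoles. The rows held 11 of them, of which 6 were tested. All 6 were higher with ATEV than with PBS, against 3.32% of all genes tested, with a median log2 fold change of 4.34. DESeq2 called 4 of them and gave no adjusted p for Gbp6 and Gbp9, and limma-voom called 6. Over all 13261 genes DESeq2 called 871 higher and limma-voom 372. Gbp5, Gbp6 and Gbp9 had 7 or fewer counts in each group other than ATEV, so they passed the filter through ATEV alone. All 6 were lower with DNase-treated ATEV than with ATEV, against 1.32% of all genes tested, with a median of -4.04. Gbp9, with 49 counts with ATEV and 5 with PBS, lost its ATEV call without ATEV replicate 3, PBS replicate 2 or PBS replicate 3 (edgeR adjusted p up to 0.0807). In DNase-treated ATEV against ATEV its call was lost without any 1 of the DNase-treated libraries or ATEV replicate 3 (up to 0.0866).

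Gbp3 and Gbp7 differed between DNase-treated ATEV and NTEV. Gbp3 averaged 9.81 ± 1.57 CPM with DNase-treated ATEV and 2.94 ± 0.594 CPM with NTEV, a log2 fold change of 1.73 ± 0.23 (edgeR adjusted p = 0.00734). Gbp7 averaged 3.76 ± 0.369 CPM with DNase-treated ATEV and 0.672 ± 0.253 CPM with NTEV, a log2 fold change of 2.44 ± 0.27 (edgeR adjusted p = 0.00319). Against PBS, edgeR called 0 of 6 guanylate-binding proteins with DNase-treated ATEV and limma-voom 0. DESeq2 called 3 higher, and 21 higher over all 13261 genes. Gbp3 was nearest the threshold there, with 1.54 ± 0.22 and an edgeR adjusted p of 0.0612, the smallest over all genes in that comparison. Gbp7 was called lower with NTEV than with PBS, by -1.36 (edgeR adjusted p = 0.0287), a call lost in 5 of 6 fits that left out 1 library (up to 0.119). Whether these genes differ from the members in their response was not tested.

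Of the interferon ligands, Ifng and Ifnb1 had 0 counts in all 12 libraries. Of 17 tested receptors, kinases, transcription factors and inhibitors, 5 were higher and 0 lower with ATEV than with PBS, with a median of 0.27. Over all genes tested, 3.32% were called higher and 1.42% lower. Irf1, a transcription factor that binds the ISRE, averaged 26.5 ± 5.29 CPM with DNase-treated ATEV, 123.1 ± 3.52 CPM with ATEV, 16.9 ± 7.48 CPM with NTEV and 17.3 ± 9.76 CPM with PBS. Its log2 fold change was 2.83 ± 0.37 for ATEV against PBS (edgeR adjusted p = 0.000786) and -2.21 ± 0.36 for DNase-treated ATEV against ATEV (edgeR adjusted p = 0.00565). The ATEV libraries of Irf1 stood apart from the other 9.

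Irf9, a DNA-binding factor of the type I interferon response, was higher with ATEV than with PBS by 1.45 (edgeR adjusted p = 0.00293). The calls of Stat2 at 1.25 (edgeR adjusted p = 0.03) and Irf8 at 0.55 (edgeR adjusted p = 0.0322) were weak: of the 6 fits that left out 1 library, 4 lost the call of Stat2 and 5 that of Irf8, with edgeR adjusted p up to 0.126 and 0.153.

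The receptor genes did not pass the test with ATEV against PBS. Log2 fold changes were -0.16 for Ifngr1, 0.11 for Ifngr2, 0.22 for Ifnar1 and 0.27 for Ifnar2 (edgeR adjusted p from 0.309 to 0.583). The feedback inhibitor Socs1 had 0.14 (edgeR adjusted p = 0.718). Other inhibitors on the list were not called either. Usp18 had 1.60 (edgeR unadjusted p = 0.00947, adjusted p = 0.0915), Socs3 -0.24 and Ptpn2 -0.26. With DNase-treated ATEV against ATEV 3 of the 17 were lower, against 1.32% of all genes tested. Among the 3 were Irf1 and Irf8. The Irf8 call was lost in 3 of 6 fits that left out 1 library (edgeR adjusted p up to 0.0924). Against PBS, edgeR called 0 of the 17 with DNase-treated ATEV, where 3 had an unadjusted p under 0.05 and the other tools called 0. Of all 13261 genes, 791 had an unadjusted p under 0.05 there. With NTEV edgeR and limma-voom called 0 against PBS, 4 had an unadjusted p under 0.05 and DESeq2 called 1. Of all 13261 genes, 2534 had an unadjusted p under 0.05 with NTEV, and DESeq2 called 595 higher and 244 lower.

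Loading of the effectors onto vacuoles depends on the ubiquitin-like conjugation system of autophagy, and 19 genes of that system and of GTPase loading were tested. Trim21, an intracellular antibody receptor and ubiquitin ligase, was the 1 gene that edgeR called higher with ATEV than with PBS, with 10.2 ± 0.614 CPM with ATEV and 5.13 ± 0.897 CPM with PBS, a log2 fold change of 0.99 (edgeR adjusted p = 0.00862). That call was lost without PBS replicate 2, at an edgeR adjusted p of 0.0628. Over all genes tested edgeR called 3.32% higher, and 1 of 19 lies near that share. DESeq2 called 4 of the 19 higher and limma-voom 1, and 8 had an unadjusted p under 0.05 in edgeR. Over all 13261 genes the numbers were 871 higher in DESeq2, 372 in limma-voom and 3557 with an unadjusted p under 0.05 in edgeR. The median of the 19 was 0.26, and the log2 fold changes ran from -0.40 to 0.99.

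**Figure D4:**
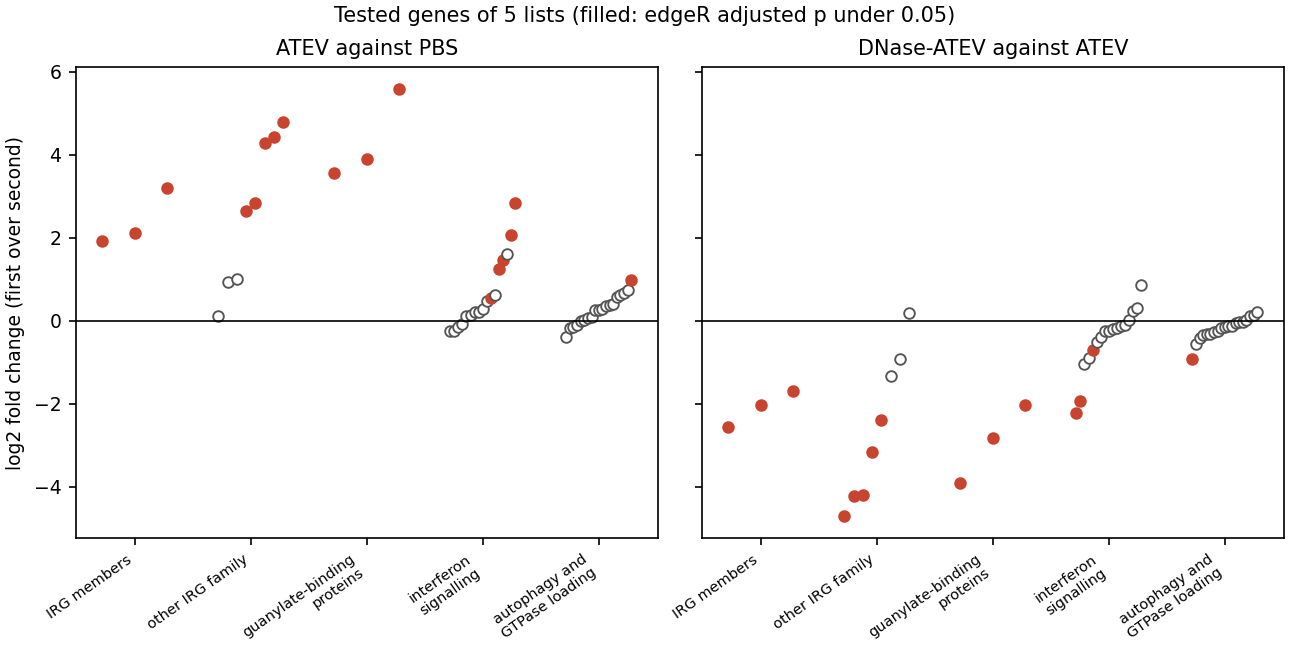
Log2 fold changes of tested genes in 5 lists, for ATEV against PBS and for DNase-treated ATEV against ATEV; each point is 1 gene, filled where the edgeR adjusted p is under 0.05, and genes with 3 or fewer counts summed in any group are not drawn. Called members, other family genes and guanylate-binding proteins lie at 1.92 or more on the left and at -1.70 or less on the right, while most signalling and autophagy genes lie near 0.

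Across the 12 libraries, genes whose log2 CPM was among the most like the mean standardised level of the 5 tested members were Serpina3f (Pearson r = 0.990), Trim30d (0.981), Psmb9 (0.978), Parp14 (0.970) and Gbp2 (0.968). These values describe a contrast of the 3 ATEV libraries with the other 9, which all these genes share, and no test was made. Psmb9, a subunit of the immunoproteasome, averaged 16.8 ± 1.02 CPM with DNase-treated ATEV, 70.0 ± 13.01 CPM with ATEV, 16.2 ± 2.396 CPM with NTEV and 14.6 ± 3.36 CPM with PBS. Serpina3f resembled the effectors, with 0.0621 ± 0.0743 CPM with DNase-treated ATEV, 4.87 ± 1.21 CPM with ATEV and 0 counts with NTEV and PBS.

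Of the 14 genes with a GAS match next to an ISRE core, 8 were tested. With ATEV against PBS 6 were higher, against 3.32% of all genes tested. Besides Irgm2, Igtp and Tgtp2 these were Gm12185, Gm12250 and Bst2, the last by 0.65 (edgeR adjusted p = 0.00543). Irf2 and Rab10os had log2 fold changes of 0.20 and 0.17 without passing the test. With PBS, Tgtp2, Gm12185 and Gm12250 had 0, 6 and 10 counts. They passed the filter through ATEV alone, so their direction was largely set by it. Since 3 of the 6 called genes are the members themselves and the distance was set on their sequences, this count is a description.

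Marker genes were summed to check what the libraries hold. Of 11 dendritic cell markers, Clec9a had 0 counts in all libraries, and Ccr7, Flt3 and Xcr1 stayed under 1 CPM in each. The summed dendritic level was 661.7 to 816 CPM with DNase-treated ATEV, 728.4 to 838.3 with ATEV, 652.8 to 712.9 with NTEV and 605.1 to 671.2 with PBS. With PBS its largest parts were Ptprc, Spi1, Irf8 and Cd74 at 255.7, 153.6, 112.3 and 97.2 CPM. Batf3 and Zbtb46 had 6.24 and 5.76. Itgax was called higher than with PBS both with ATEV (1.29, edgeR adjusted p = 0.0116) and with NTEV (1.32, edgeR adjusted p = 0.0185). Of 6 fits that left out 1 library, 4 kept the first of these calls and 2 the second. Macrophage markers, 7 in all and led by Lyz2, summed to 2929 to 3233 CPM with DNase-treated ATEV, 4410 to 7254 with ATEV, 4557 to 5237 with NTEV and 3167 to 3757 with PBS. The sums lay above those of PBS in the ATEV libraries and also in the NTEV libraries, where no member was called; their part in the result was not tested. Lyz2 carried the sum, at 3866 ± 1478 CPM with ATEV and 1662 ± 217 CPM with PBS. With ATEV against PBS 2 of the 7 were called higher (Lyz2 and Fcgr1) and Mrc1 lower (-1.69, edgeR adjusted p = 0.0292), and Csf1r and Cd68 had log2 fold changes of 0.0044 and 0.05. The Lyz2 call was lost without PBS replicate 2 and that of Mrc1 whichever of the 6 libraries was left out. The Fcgr1 call was kept in 2 of the 6 fits (edgeR adjusted p up to 0.176). Mrc1 was also called lower with NTEV than with PBS (-1.81, edgeR adjusted p = 0.0308), a call kept in 1 of 6 such fits. Of 12 T cell markers, Cd3e and Cd8a had 0 counts in all libraries and 9 stayed under 1 CPM. The other 3, Cd28, Lck and Cd5, were detected, at up to 94.6, 18.5 and 3.63 CPM. Their summed level with the rest was 55.8 to 62.3 CPM with DNase-treated ATEV, 44.7 to 63.7 with ATEV, 36.2 to 53.9 with NTEV and 60.1 to 102.6 with PBS. Cd28 was called lower with ATEV than with PBS (-0.83, edgeR adjusted p = 0.0488), a call lost in 5 of 6 fits that left out 1 library. It was also called lower with NTEV than with PBS (-1.07, edgeR adjusted p = 0.0266), a call kept in 3 of 6 such fits.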

How the data were processed

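Per the labels' protocols, RNeasy-purified RNA went into TruSeq stranded mRNA libraries. Listed in the submitters' processing notes are mm9, Cufflinks 2.1.1, TopHat, TopHat2 2.0.11 and bcl2fastq 2.19. The counter, annotation and strand setting are not given in the sources used here; overlapping and antisense genes may therefore share reads. The authors deposited counts as whole numbers for each gene and library, with no visible normalization. Of 42687 Ensembl IDs, 42250 were matched to GENCODE M21 symbols and 437 were not.

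Analysis of the counts used edgeR 4.0.16 in R 4.3.3 (filterByExpr with minimum count 10 and minimum total 15, TMM, glmQLFit and glmQLFTest, 1 mean per group over all 12 libraries). Tests were two-sided, with Benjamini-Hochberg adjustment over 13261 genes in each of 6 comparisons and calls at 0.05. Standard errors were derived from the F statistic, and approximate 95% intervals from those. Folds against 0 counts use a floor of 3 counts over the group. DESeq2 1.42.0, limma 3.58.1 (voom), other scalings, no filter, a replicate block and leaving out libraries were alternatives. Poisson and count-ratio intervals cover counting error only. The fit was tested on simulated counts.

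The 6 members and all gene lists were chosen with earlier results of these data known. Named genes were all members, any tested gene of the family and interferon signalling lists, up to 4 guanylate-binding protein and autophagy genes with the smallest adjusted p in a comparison, and the 6 non-members most like the members; Bst2, Rab10os and the single marker genes were named after their values were seen. Promoters were matched by symbol. Some genes that meet this rule for names are counted in the lists but are not reported here by name.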

Additional observations from a re-analysis of the deposited data

How the results depend on the processing

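Of the 5 members that pass the filter, the number called was 5 for ATEV against PBS, DNase-treated ATEV against ATEV and ATEV against NTEV, and 0 in the other 3 comparisons, in each alternative run and in each fit that left out 1 library (range 5 to 5 or 0 to 0). Of 358 values for single members under the alternatives, 356 kept their direction and their side of the threshold and 2 changed sign, both close to 0 and not called: Igtp for DNase-treated ATEV against PBS was -0.017 without DNase-treated ATEV replicate 3 and reached 0.18 without other single libraries, against 0.09 with all, and Irgm1 for DNase-treated ATEV against NTEV was -0.022 without NTEV replicate 1 and DNase-treated ATEV replicate 1 together and reached 0.14 without single libraries, against 0.07 with all. For ATEV against PBS, log2 fold changes ranged from 1.82 to 2.02 for Irgm1, 3.07 to 3.42 for Irgm2 and 2.04 to 2.18 for Igtp, with adjusted p at most 0.000525. With no filter on low counts 23092 genes were tested and Tgtp1, outside those 5, was then called too, with edgeR adjusted p of 0.00121 for ATEV against PBS and 0.00259 for DNase-treated ATEV against ATEV. Libraries with the same replicate number did not all deviate together (correlations from -0.382 to 0.619), and in 10 of 36 comparisons of a library with another group its own number correlated best, so the numbers were not taken to pair them; with the replicate block the counts of called members were again 5 and 0. Where both groups had 4 or fewer counts, fold changes of Iigp1 and Tgtp2 were not compared across alternatives. Counts over all genes moved far more than those of the members: DESeq2 called 871 genes higher and 647 lower for ATEV against PBS, against 440 and 188 in edgeR, and leaving out 1 library gave 169 to 863 in all; for NTEV against PBS the range was 31 to 1687 around 306.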
